A study of Mus musculus with 6 samples.

Results

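The 9 genes described here make, bind, sense or break down retinoic acid: Aldh1a1, Aldh1a2, Aldh1a3, Crabp1, Crabp2, Rxrb, Rarb, Cyp26a1 and Rdh10. They were taken by gene symbol from the platform annotation of an Illumina bead array, with every probe of each gene, and make up 16 of 46632 probes and 9 of 17711 named genes. Each array held amplified RNA from the prospective lens tissue of 1 mouse embryo at E10.25 (embryonic day), laser-cut from frozen sections, with both eye regions of the embryo in a single sample. The 3 wild-type embryos gave lens placode and the 3 Pax6-/- embryos gave the surface ectoderm named in the labels, all on a mixed FVB and 129 background without treatment. The labels give Pax6-/- as the genotype of the embryo, so tissues next to the ectoderm carry it too, and they do not describe the allele. The comparison asks what differs in this tissue when Pax6, a transcription factor needed for eye development, is missing.

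Retinoic acid is a lipid signal made from vitamin A in a pair of steps. Retinol dehydrogenases such as RDH10 oxidise retinol to retinal, and the retinal dehydrogenases of the ALDH1A family oxidise retinal to retinoic acid. CRABP proteins bind retinoic acid inside the cell, CYP26 enzymes break it down, and heterodimers of a RAR and an RXR receptor bind DNA and switch target genes when retinoic acid is present. In the developing mouse eye the signal is made by parts of the retina and by ectoderm over the optic vesicle, and it is known to act on the surrounding mesenchyme.

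Levels are normalised log2 intensities per probe, a change is the Pax6-/- mean less the wild-type mean, with ± 1 standard error from a limma fit over all 17751 probes kept, and adjusted p-values are Benjamini-Hochberg values over all of them. A probe was above background on an array at a detection p under 0.05. Across the arrays, 35.0% to 40.2% of the probes were above background, and arrays correlated at 0.76 to 0.82 within a genotype and at 0.72 to 0.82 between genotypes. Cdh1, Epcam, Krt8 and Krt18, which mark epithelium, were above background on all 6 arrays. The lens regulators Maf, Foxe3 and Pitx3 exceeded background on each wild-type array and on no Pax6-/- array. Of the other lens placode genes listed, Sox2, Six3 and Mab21l1 exceeded it on all 6 arrays. Cryab did so on 3 wild-type and 2 Pax6-/- arrays, and Prox1 and Crybb3 on 3 wild-type arrays and 1 Pax6-/- array each. The 3 Pax6 probes were above background on all 6 arrays with changes of -0.99 to -0.52 and no overlap of the genotypes, and none passed (limma adjusted p of 0.388 to 0.646). All that follows compares tissue samples, in which fewer cells of a type and less RNA per cell cannot be told apart.

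Of the 16 probes, 10 passed the detection filter, from 8 of the 9 genes. None of the 10 passed an adjusted p of 0.05 in limma, against 0.062% of all probes tested (11 of 17751). At an unadjusted p under 0.05 there were 5, against 8.96% of all probes. Of these 3 were lower in Pax6-/-, against 5.04% of all probes, and 2 were higher, against 3.92%. The same 5 were those in which the genotypes did not overlap, against 15% of all probes. They were both tested probes of Aldh1a3 and the probe of Cyp26a1 on the low side, and Crabp2 and Rxrb on the high side. Aldh1a3 probe ILMN_1237578 and the Cyp26a1 probe were not above background on every Pax6-/- array. With detection required on all 6 arrays both dropped out, which left 1 lower and 2 higher of 6 tested. Over all probes that setting gave 498 lower and 464 higher of 10725. The median change of the 10 was 0.39, against 0.05 over all probes, and their median size regardless of sign was 0.96 against 0.38. When arrays were scaled to a common median in place of quantile normalisation, the counts at unadjusted p under 0.05 were 3 lower and 0 higher, and over all probes 1723 lower and 324 higher, since that scaling moved the median change of all probes to -0.24.

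**Figure D1:**
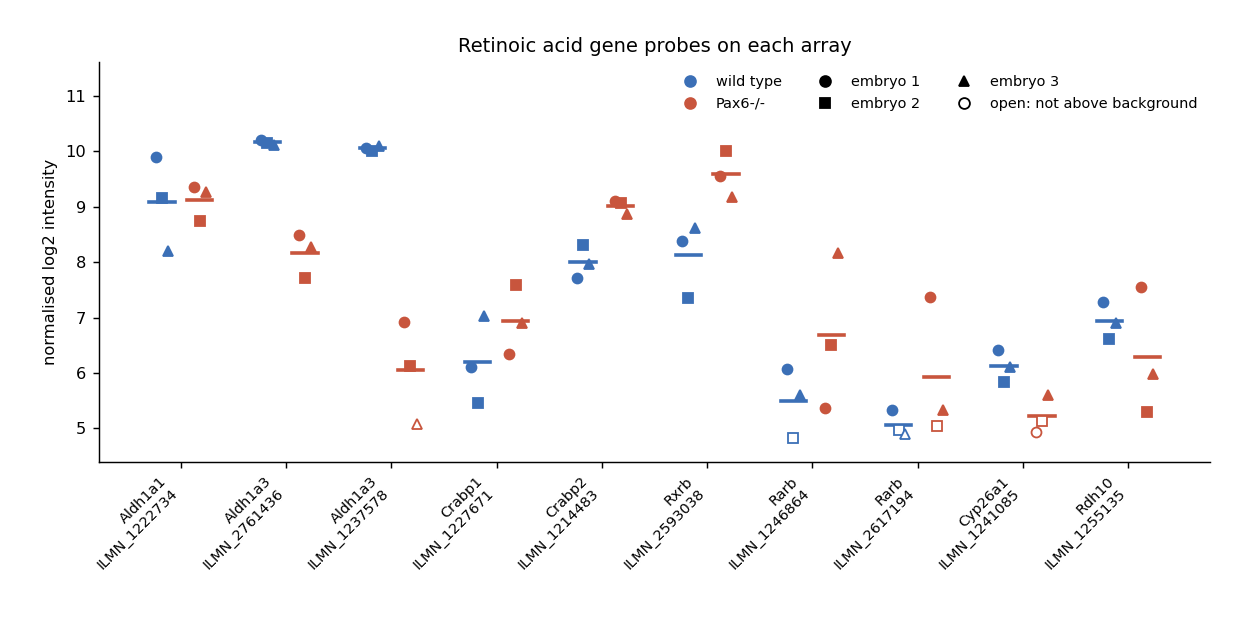
Normalised log2 intensity (vertical axis) of the 10 tested probes on each of the 6 arrays, with wild type in blue and Pax6-/- in red, the embryo number as the symbol, the bar at the genotype mean and open symbols for arrays where the probe was not above background. The 3 wild-type values of each Aldh1a3 probe lie together near 10 and above every Pax6-/- value, while the Aldh1a1 values of the genotypes overlap.

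**Figure D2:**
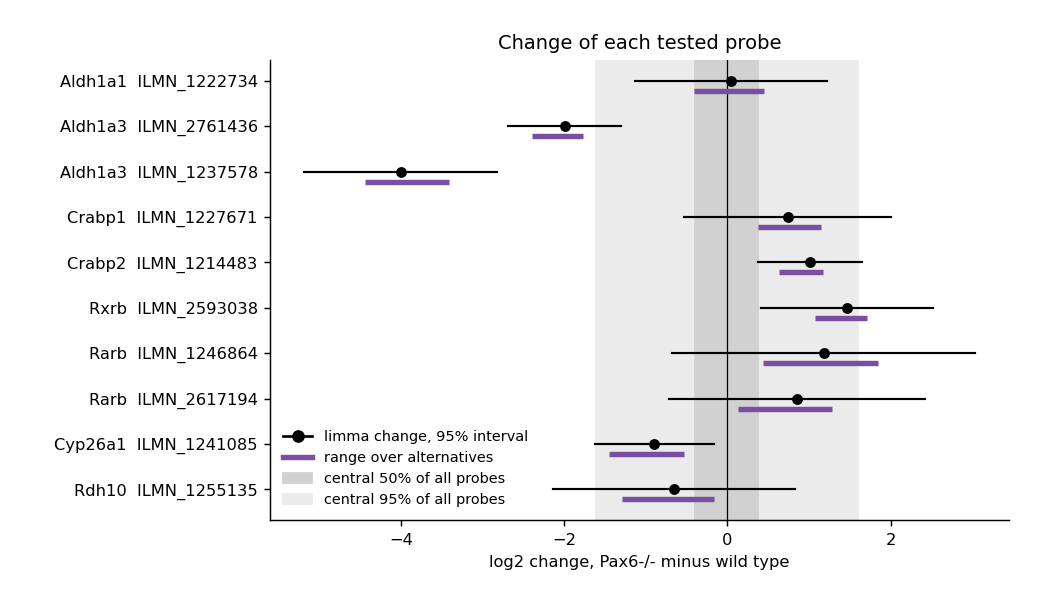
Log2 change (horizontal axis, Pax6-/- minus wild type) of each tested probe, as a point with its 95% interval from limma. The purple bar gives the range over the alternative settings, and the grey bands hold the central 50% and 95% of all 17751 probes; the Aldh1a3 probes are the only 2 of the 10 whose points lie outside the wider band.

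Retinoic acid synthesis was represented by 4 of the genes, and Aldh1a3 had the largest differences of the 8 genes tested. Aldh1a3 encodes the retinal dehydrogenase known from ventral retina, pigment epithelium and head ectoderm of the mouse. On probe ILMN_2761436, annotated to a RefSeq mRNA, wild-type arrays 1, 2 and 3 gave 10.21, 10.16 and 10.11, against 8.49, 7.72 and 8.27 on Pax6-/- arrays 1, 2 and 3. On probe ILMN_1237578, annotated to a GenBank cDNA clone, the wild-type levels were 10.06, 10.00 and 10.10, against 6.92, 6.14 and 5.08 in Pax6-/-. Every wild-type value stood above every Pax6-/- value on both probes, and the wild-type spread was 0.05 on each (SD, n = 3), against 0.40 and 0.92 in Pax6-/-. The first probe changed by -1.99 ± 0.28, a 3.98-fold lower level (95% interval of the log2 change -2.69 to -1.30). The other changed by -4.003 ± 0.484 (95% interval -5.19 to -2.82). Its size is limited by background, since only 2 of its 3 Pax6-/- values were above it, and without Pax6-/- array 3 the change was -3.52. These ranked 65 and 39 of 17751 probes by p-value, and neither passed (limma adjusted p = 0.108 and 0.0772). Over the alternative settings the first ran from -2.39 to -1.77 and the other from -4.44 to -3.41, with adjusted p of at least 0.0825 and 0.0618.

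The sizes of the Aldh1a3 differences were not the same on the 2 probes. In raw signal the probes read almost alike in wild type, at 1601, 1300 and 964 for ILMN_2761436 and 1469, 1179 and 958 for ILMN_1237578. In Pax6-/- the first kept signals of 347, 242 and 310 and was above background on all 3 arrays, while the other read 151, 105 and 61.8 and was above background on arrays 1 and 2 only. Bead-to-bead standard errors were 2.67% to 5.37% of these raw signals, background included. The within-array log2 difference between the probes was 0.01 to 0.16 in wild type. It was 1.57 and 1.58 on Pax6-/- arrays 1 and 2, and 3.19 on array 3, where the dimmer probe was not above background. Over the 5 arrays with both probes above background, a choice made after seeing the data, the genotypes differed by 1.47 in this quantity, and over all 6 arrays by 2.01. The exact permutation p was 0.1 in both cases (two-sided), the smallest that either number of arrays allows. The remaining probe, ILMN_1235590, annotated to another cDNA clone, was above background on wild-type array 1 only and was not tested, with raw signals of 59.5 to 82.2 in wild type and 55.0 to 57.9 in Pax6-/-. Where on the transcript each probe lies was not analysed here.

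**Figure D3:**
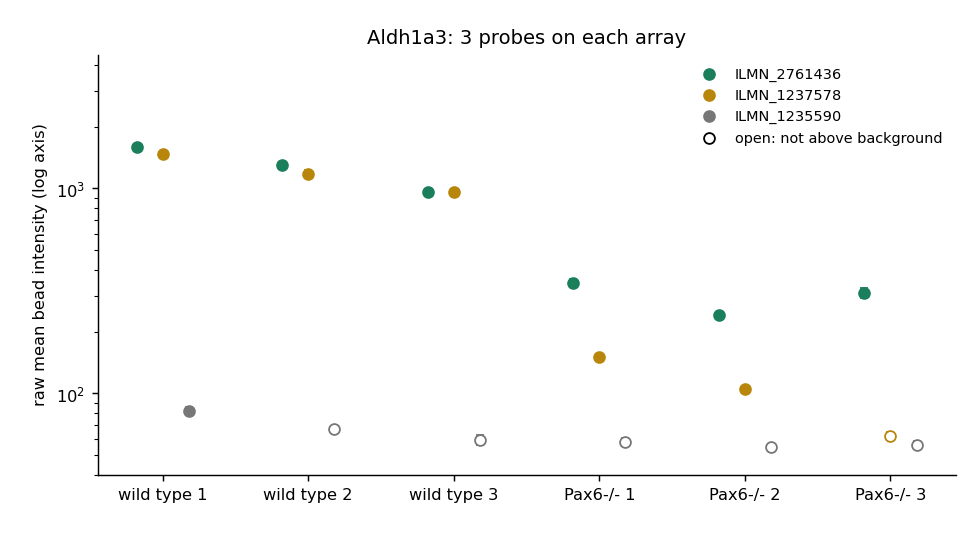
Raw mean bead intensity (vertical log axis) of the 3 Aldh1a3 probes on each array, with bars for the standard error of the bead mean (mostly smaller than the points) and open points where the probe was not above background. The 2 brighter probes coincide on the wild-type arrays and separate on the Pax6-/- arrays, where 1 of them reaches background on array 3.

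Aldh1a1, the retinal dehydrogenase of the mouse dorsal retina, gave no such pattern. Its probe was above background on all 6 arrays and read 9.90, 9.16 and 8.20 in wild type and 9.36, 8.74 and 9.27 in Pax6-/-. The 3 Pax6-/- values lay inside the wild-type range, and wild-type arrays 1 and 3 were further apart than any other 2 arrays. The change was 0.04 ± 0.48 (limma adjusted p = 0.983), with a 95% interval of -1.14 to 1.21, so these arrays do not tell a steady level from a change of about 1 log2 unit either way. The sign depended on single arrays, at -0.41 without wild-type array 3, -0.08 without Pax6-/- array 1 and -0.04 without Pax6-/- array 3. With arrays scaled to a common median it was -0.28, or -0.04 relative to the median of all probes, against -0.01 relative to that median under quantile normalisation. Aldh1a2, the retinal dehydrogenase of embryonic mesoderm and mesenchyme, had a single probe that was not above background on any array, with raw signals of 52.2 to 66.6 in wild type and 59.1 to 64.6 in Pax6-/-. A difference in Aldh1a2 was not detectable at this signal.

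Rdh10, which makes the retinal that the ALDH1A enzymes use, was above background on all 6 arrays. It read 7.29, 6.61 and 6.89 in wild type and 7.56, 5.31 and 5.98 in Pax6-/-. Pax6-/- array 1 was the highest of all and the other Pax6-/- arrays were the lowest, so the genotypes overlapped. The change was -0.65 ± 0.61 (95% interval -2.13 to 0.83, limma adjusted p = 0.81). It was -1.29 without Pax6-/- array 1 and -0.16 without Pax6-/- array 2.

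The binding proteins read higher on average in Pax6-/-, with the genotypes apart for Crabp2 only. CRABP2 is known to hand retinoic acid to nuclear receptors. Its probe read 7.72, 8.31 and 7.96 in wild type and 9.10, 9.07 and 8.86 in Pax6-/-. All Pax6-/- arrays were above all wild-type arrays, with a spread of 0.13 in Pax6-/- and 0.30 in wild type (SD, n = 3 each). The change was 1.02 ± 0.26, a 2.02-fold higher level (95% interval 0.38 to 1.65), and did not pass (limma adjusted p = 0.308). With arrays scaled to a common median it was 0.63, or 0.86 above the median of all probes under that scaling, and it had an unadjusted p under 0.05 in 13 of 14 alternatives. Crabp1, known in the mouse as a strong marker of cranial neural crest and parts of the nervous system, read 6.11, 5.47 and 7.03 in wild type and 6.33, 7.59 and 6.90 in Pax6-/-. The genotypes overlapped, and the change was 0.74 ± 0.52 without passing (95% interval -0.53 to 2.01, limma adjusted p = 0.756). It was 0.37 without wild-type array 2, 0.41 without Pax6-/- array 2 and 1.15 without wild-type array 3.

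Among the receptors, Rxrb had the clearest difference and Rarb the widest spread. RXRB is a broadly expressed partner of the RARs and of other nuclear receptors. Its probe ILMN_2593038 read 8.39, 7.35 and 8.62 in wild type and 9.56, 10.01 and 9.18 in Pax6-/-. The genotypes did not overlap, and wild-type array 2 stood apart at the low end. The change was 1.46 ± 0.43, a 2.76-fold higher level (95% interval 0.41 to 2.51), and did not pass (limma adjusted p = 0.365). It stayed between 1.08 and 1.71 over the alternatives, and scaled to a common median it was 1.32 above the median of all probes. The other 2 Rxrb probes were not above background on any array, with raw signals of 49.2 to 65.5, so the value rests on a single probe.

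Rarb encodes a receptor whose own gene is a classical target of retinoic acid, and its start region is shown because it carries the response element through which that control is known to run. The sequences come from RefSeq on build GRCm38.p6, with 250 bases before and 50 after the gene's start. Of the 9 genes 6 matched, with 8 promoters in all, and Aldh1a3, Crabp2 and Rdh10 had none to search. The element searched was a direct repeat of 2 hexamers, with 1, 2 or 5 bases between them on either strand. The hexamers allowed were the consensus form AGGTCA, its common variant AGTTCA, the further variant written GGGTCA and the last variant, GGTTCA. The repeat with 5 bases between was found in the promoters of Rarb and Cyp26a1 and in no other of the 8, against 32 of 32851 promoters of the same length in the table, or 0.0974%. The spacings of 1 and 2 bases were in none of the 8, against 0.222% and 0.268% of all promoters. In 62 promoters of 46 of the further pathway genes described below, 0 had the spacing of 5 bases. Bco1 among them had a repeat with 1 base between. Capitals mark the hexamers in the sequences below, each read 5′ to 3′ on the strand of the gene. In Rarb the repeat lay at -53 to -37 from the start on the gene's strand, at chr14:16575427-16575726 on the minus strand for the whole window. In Cyp26a1 it lay at -32 to -16 on the opposite strand, so the capitals read TGAACT, within chr19:37697558-37697857 on the plus strand.
Rarb: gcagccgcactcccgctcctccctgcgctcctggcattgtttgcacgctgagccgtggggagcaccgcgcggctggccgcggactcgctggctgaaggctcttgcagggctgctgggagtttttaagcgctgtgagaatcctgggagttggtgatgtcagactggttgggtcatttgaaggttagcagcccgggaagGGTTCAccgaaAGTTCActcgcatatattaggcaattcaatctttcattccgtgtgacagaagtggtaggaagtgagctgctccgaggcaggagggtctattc
Cyp26a1: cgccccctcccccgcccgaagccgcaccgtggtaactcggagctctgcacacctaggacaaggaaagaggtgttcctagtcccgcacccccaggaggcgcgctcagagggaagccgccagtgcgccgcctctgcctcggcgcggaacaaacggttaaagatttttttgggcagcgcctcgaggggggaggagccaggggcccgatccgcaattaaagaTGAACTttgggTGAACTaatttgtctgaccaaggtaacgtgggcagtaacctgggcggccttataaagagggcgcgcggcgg

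The genes with these elements were dim, and their tested probes differed in sign. Rarb probe ILMN_1246864 read 6.07, 4.82 and 5.61 in wild type and 5.36, 6.51 and 8.16 in Pax6-/-, and was above background on 2 wild-type and 3 Pax6-/- arrays. Probe ILMN_2617194 read 5.33, 4.97 and 4.91 in wild type and 7.37, 5.05 and 5.34 in Pax6-/-, and was above background on 1 and 2 arrays. The genotypes overlapped on both, and the highest value came from Pax6-/- array 3 on the first probe and from Pax6-/- array 1 on the other. Over the 6 arrays the levels of these 2 probes correlated at -0.17. The changes were 1.18 ± 0.76 and 0.85 ± 0.64, with limma adjusted p of 0.733 and 0.772. Without Pax6-/- array 3 the first was 0.44, and without Pax6-/- array 1 it was 1.84 (limma unadjusted p = 0.0372, adjusted p = 0.552). Pax6-/- array 2 also lay above all wild-type arrays on that probe. The other was 0.13 without Pax6-/- array 1 and 1.29 without Pax6-/- array 2. The remaining Rarb probe was above background on Pax6-/- array 1 only and was not tested.

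Cyp26a1, whose product degrades retinoic acid and whose gene is induced by it, lay lower in Pax6-/-. Probe ILMN_1241085 read 6.42, 5.84 and 6.11 in wild type and 4.93, 5.14 and 5.60 in Pax6-/-. All wild-type arrays were above background and above all Pax6-/- arrays, of which only array 3 was above background. The change was -0.90 ± 0.30, a 1.86-fold lower level (95% interval -1.62 to -0.17), and did not pass (limma adjusted p = 0.439). Its size is limited by background in Pax6-/-, and it ran from -1.45 to -0.54 over the alternatives. A second Cyp26a1 probe was not above background on any array, with raw signals of 48.3 to 69.4.

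The wider pathway was described from a list of further genes, of which 56 were on the array with 101 probes, and 40 probes of 25 genes passed the detection filter. At an adjusted p under 0.05, 1 probe of the 40 passed (2.5%), against 0.062% of all probes tested (11 of 17751). It was that of Tgm2, a protein-crosslinking transglutaminase whose gene is induced by retinoic acid in many cells, and it fell. It read 9.47, 9.01 and 9.20 in wild type and 5.40, 4.81 and 4.82 in Pax6-/-, with 1 Pax6-/- array above background and no overlap. The change was -4.22 ± 0.29 (limma adjusted p = 0.0332), and its size is limited by background in Pax6-/-. Leaving out any single array gave adjusted p of 0.105 to 0.17. At an unadjusted p under 0.05, 3 of the 40 were lower and 7 higher, or 25% against 8.96% of all probes. With arrays scaled to a common median these were 5 lower and 2 higher. The median change of the 40 probes was 0.09.

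Aldh1a7 read lower in Pax6-/-, and how its change differs from that of Aldh1a1 was not tested. Whether its product acts on retinal was not examined here. Aldh1a7 is a close paralogue of Aldh1a1 on the same chromosome 19 in the mouse. It read 9.04, 7.33 and 8.06 in wild type and 6.31, 5.71 and 6.13 in Pax6-/-, with no overlap and a change of -2.10 ± 0.48 (limma adjusted p = 0.248). The transcripts are much alike, so how far each probe reads the other gene is uncertain and was not tested. Of 9 probes for 7 retinol and retinal oxidoreductases, 1 had an unadjusted p under 0.05 (11.1%, against 8.96% of all probes), a dim Adh5 probe at -1.37 ± 0.39, while the brighter Adh5 probe was at -0.20 ± 0.24. The others ran from -0.73 to 0.54. Stra6, the receptor that takes up retinol from its plasma carrier, was the 1 tested gene of precursor uptake and storage. It read 5.90, 6.96 and 7.59 in wild type and 6.76, 5.00 and 7.16 in Pax6-/-, with a change of -0.51 ± 0.71 (limma adjusted p = 0.868).

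In the degradation branch, Cyp26b1 was on the opposite side from Cyp26a1. It read 8.81, 6.03 and 8.62 in wild type and 10.38, 9.99 and 9.44 in Pax6-/-, without overlap, and wild-type array 2 was far below the others. Its change of 2.12 ± 0.80 did not pass (limma adjusted p = 0.511), and was 1.22 without that array. Fabp5, a fatty acid binding protein that can also carry retinoic acid, read 6.23, 4.81 and 5.57 in wild type and 6.97, 5.79 and 6.998 in Pax6-/- on its brighter probe, a change of 1.05 ± 0.51 (limma adjusted p = 0.64) that was 0.68 without wild-type array 2. The retinoic acid receptor genes Rara and Rarg and the partner gene Rxrg were on the array and did not pass the detection filter. Of 13 coregulator probes, only a probe of the acetyltransferase gene Crebbp had an unadjusted p under 0.05, at 0.97 ± 0.38, with its other tested probe at 0.26 ± 0.55. That is 7.69% of the coregulator probes, against 8.96% of all probes.

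Among 12 probes for 6 genes that retinoic acid is known to regulate, 6 had an unadjusted p under 0.05, with Tgm2 lower and 5 higher, or 50% against 8.96% of all probes either way. The 5 belonged to 3 transcription factor genes. Both probes of the orphan receptor gene Nr2f2 were higher, with changes of 0.77 ± 0.23 and 2.43 ± 0.75. The homeobox gene Meis2 had 2 probes at 1.30 ± 0.43 and 0.61 ± 0.24 and another at 0.47 ± 1.15. Meis1 had 1.34 ± 0.37 on its brightest probe and -1.17 to -0.24 on the other 3, so its probes differed in sign. None of the 5 passed (limma adjusted p of 0.337 to 0.54). With arrays scaled to a common median, 3 of the 5 no longer had an unadjusted p under 0.05 in limma, the smaller Nr2f2 change at 0.38 and the Meis2 changes at 0.92 and 0.28. Relative to the median of all probes under that scaling these were 0.62, 1.16 and 0.51. The related gene Nr2f1 read 11.14, 11.25 and 11.27 in wild type and 11.59, 11.59 and 11.61 in Pax6-/-, without overlap of the genotypes. Its change of 0.38 ± 0.21 missed an unadjusted p under 0.05 (limma unadjusted p = 0.124, adjusted p = 0.695).

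**Figure D4:**
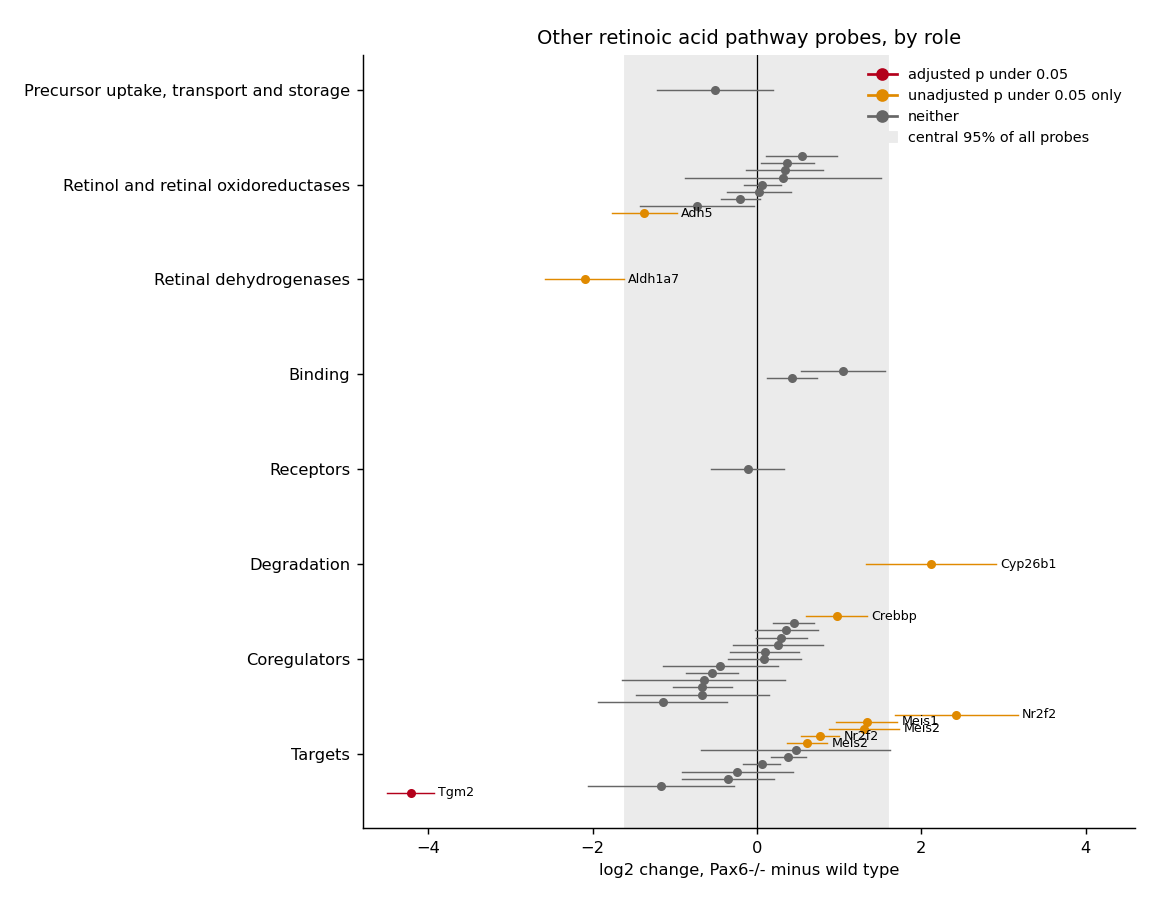
Log2 change (horizontal axis) of the 40 tested probes of other retinoic acid pathway genes, grouped by role, as points with the limma standard error. Tgm2 in red is the probe that passed an adjusted p of 0.05, orange probes had only an unadjusted p under 0.05, and the grey band holds the central 95% of all 17751 probes.

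Markers of neighbouring tissues also differed between the same arrays. The counts of marker genes are at an unadjusted p under 0.05, which 3.92% of all probes met as higher in Pax6-/- and 5.04% as lower. Genes of the optic cup and neuroectoderm, a tissue that expresses Aldh1a1 and Aldh1a3 in mouse embryos, had list means of 5.88 to 6.11 in wild type and 7.18 to 7.70 in Pax6-/-. Of its 10 tested genes, 4 were higher and 0 lower, and Zic2, Tyr, Vax2 and Hes5 were not above background on any array. Mesenchyme and neural crest genes, the cells known for Crabp1 and Nr2f2, had means of 6.48 to 7.41 and 6.995 to 7.937, with 4 of 10 higher, 1 lower, and Sox10 and Foxd3 never above background. Red blood cell genes had means of 5.93 to 7.82 and 8.61 to 8.87, with 4 of 6 higher and 0 lower. Endothelial genes had means of 5.95 to 6.31 and 6.75 to 6.91, with 1 of 6 higher, 1 lower, and Tie1 never above background. The 10 surface ectoderm genes had means of 8.005 to 8.483 and 8.37 to 9.02, with 2 higher and 1 lower, and Krt14 was never above background. The lens placode genes had means of 8.85 to 9.11 and 6.28 to 6.63, with 7 of 10 lower and 0 higher. Of the macrophage genes only 1 was tested, with levels of 5.18 to 8.90 and 5.01 to 8.30, and Ptprc and C1qa were never above background. The part of these tissues, lens placode included, in the values of Crabp1, Crabp2, Rxrb, Rarb, Cyp26b1, Nr2f2 and the Meis genes was not tested. It was not tested for Aldh1a1, Aldh1a3, Aldh1a7, Cyp26a1 and Tgm2 either.

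**Figure D5:**
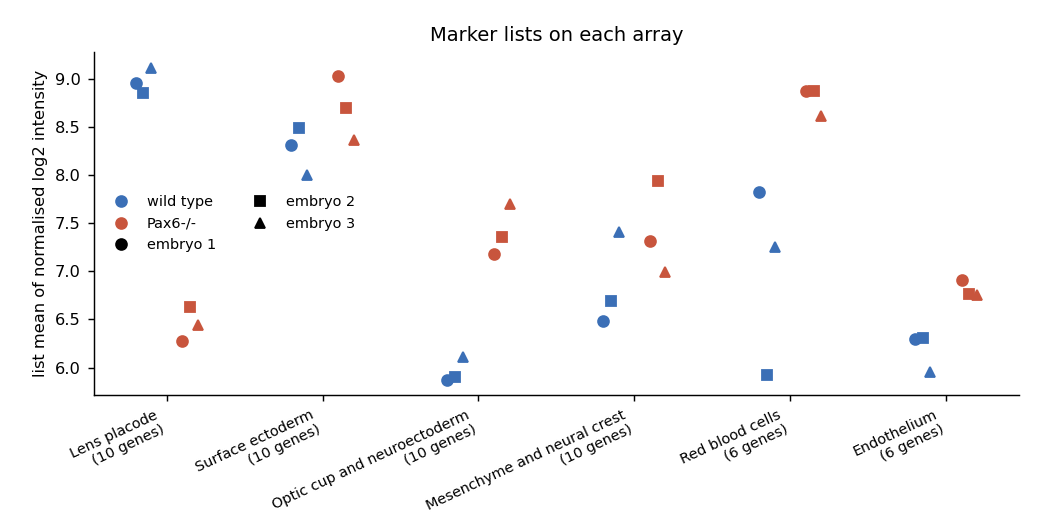
Mean normalised log2 intensity (vertical axis) of the tested genes in 6 marker lists on each array, with wild type in blue and Pax6-/- in red and the embryo number as the symbol. The lens placode list is lower and the optic cup, red blood cell and endothelial lists are higher on every Pax6-/- array, while the surface ectoderm and mesenchyme lists overlap.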

How the data were processed

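Total RNA, 15 ng per embryo, was amplified to cDNA and hybridised to 1 bead array per embryo, per the labels' protocols. Per the file headers, the deposited raw table gives for every probe a mean bead intensity (linear), a bead standard error, a bead count and a detection p-value. GenomeStudio produced them, per the submitters' processing notes, with a version and settings that the sources used here do not give. The authors also deposited processed intensity values, linear and partly below 0 with an unstated method, which served as an alternative. All 6 arrays lay on 1 slide with the genotypes on alternating positions.

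The neqc procedure of limma 3.58.1 in R 4.3.3 corrected background from the detection p-values, added an offset of 16, normalised by quantiles and took log2. The offset and quantile step shrink changes of dim probes and hide a shift in total RNA. A probe was kept, as its own row, if its detection p was under 0.05 on 3 or more of the 6 arrays. Genotypes were compared by lmFit and eBayes with no covariate. The fit was also run on simulated data with independent normal noise and no background floor, and its outcome is not used here. Exact permutation of 3 against 3 arrays reaches 0.1 at the lowest. Embryos are separate replicates per the series' design text. Values rest on 37 beads in the median, and on 20 to 61 for the probes of the 9 genes. The number of arrays limits the precision.

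Probes were named by the platform annotation, and all 9 gene identifiers matched the RefSeq table of GRCm38.p6, with 0 symbols changed. The array files name no build, so coordinates are given only for RefSeq promoters. Every probe of the 9 genes is reported. Of the wider list, probes at an unadjusted p under 0.05 and the brightest other probe of a role could be named. The members, lists and tests were chosen with earlier results of these data known. Alternatives were cyclic loess, median scaling, an offset of 50, no filter, detection on all 6 arrays, 1 probe per gene, the authors' values, the replicate block and leaving out each array.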

Additional observations from a re-analysis of the deposited data

How the results depend on the processing

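No probe of the 9 genes passed in the main setting or in any of the 14 alternatives of limma, and 9 of the 10 tested probes kept their sign in every alternative that tested them. Aldh1a1 did not, from -0.41 to 0.44 with single arrays left out and at -0.28 under median scaling, which moved the median of all probes to -0.24. Stra6 ran from -0.97 to 0.14 with single arrays left out. The count of the 9 genes' probes at an unadjusted p under 0.05 was 5, then 3 with median scaling, 3 with detection on all 6 arrays, which tests fewer probes, and 4 to 6 with single arrays left out. The wider pathway had 1 passing probe, that of Tgm2, then 0 with the replicate block and 0 without any single array. With detection on all 6 arrays 0 passed, but that filter leaves the Tgm2 probe untested. The wider pathway's count at an unadjusted p of 0.05 was 10 of 40, then 6 of 25 with 1 probe per gene. Of the same 40 probes it was 6 with the replicate block and 6 to 9 without single arrays, lowest without Pax6-/- array 1 or 2. Over all probes 11 passed, then 4 with cyclic loess, 3 with an offset of 50, 18 with the authors' processed values, 0 with detection on all 6 arrays (962 at an unadjusted p of 0.05, against 1590), 0 with the replicate block (1514 at an unadjusted p) and 0 to 2 without single arrays (1426 to 1981 at an unadjusted p). Detection on all 6 arrays also leaves untested the Maf, Prox1 and Crybb3 probes, which passed in the main setting. Causes were not tested beyond the fewer probes or arrays named. The gap between the Aldh1a3 probes was 1.54 to 2.25 under the other scalings, offset and source of values, and 1.47 over arrays with both above background, an alternative chosen after seeing the data. Replicate numbers are shared between genotypes, and same-numbered arrays held neighbouring positions on the slide, so the replicate block pairs those positions. The labels name no other pairing, and deviations of same-numbered arrays correlated at -0.01 to 0.00. Signal over background limits Aldh1a2, Rarb, Cyp26a1 and the dim side of Aldh1a3 and Tgm2.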
